A study of Mus musculus with 20 samples.

Results

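The genes described here are 8 factors that are known to keep resting T cells quiescent: Foxo1, Foxo3, Foxp1, Tob1, Btg1, Btg2, Slfn2 and Klf3. They were chosen by name, and their probes are all those that carry one of these symbols in the scanner files, 15 probes for 8 of the 30342 genes on the array. RNA came from CD4 T cells sorted out of B6.Cg-Foxp3<tm1Mal> mice of both sexes, 8-14 weeks old, in which GFP reports Foxp3, and each array held 1 sorted pool of cells from 8 to 15 mice. In peripheral lymph nodes (pLN) of mice immunised with keyhole limpet hemocyanin in Alum, naive T cells (GFP-, PD1- and GL7- in the sort), T follicular helper (TFH) cells (GFP-, PD1hi, GL7+), regulatory T (Treg) cells (GFP+, PD1-, GL7-) and T follicular regulatory (TFR) cells (GFP+, PD1hi, with or without GL7) were taken on day 12 (d12, 2 arrays per group) and day 25 (d25, 1 array per group). From Peyer's patches (PP) came Treg cells, TFR cells and TFH cells with (GL7+) or without (GL7-) that epitope, again with 2 arrays per group. The labels of the PP samples give no immunisation and no day. The 2 arrays of a group held separate pools but also lay on different slides, with 50 ng of RNA on the first and 40 ng on the second, so the p-values measure a spread that includes pool, slide and input. In such bulk samples fewer cells with a transcript and less of it per cell cannot be told apart.

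Resting lymphocytes are held in a small, non-dividing state by an active programme. FOXO1 and FOXO3 are forkhead transcription factors that sit in the nucleus while PI3K and AKT are silent and maintain genes of homing and survival such as Il7r, Ccr7 and Klf2, and FOXP1 is a forkhead repressor that keeps naive T cells resting and restrains TFH differentiation. TOB1, BTG1 and BTG2 are antiproliferative proteins that bring the CCR4-NOT deadenylase to messenger RNA, SLFN2 protects quiescence of T cells and monocytes, and KLF3 is a Kruppel-like transcriptional repressor.

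The arrays lay on 5 slides of 4 arrays: slides 1 and 2 held the first and second array of the pLN d12 groups, slide 3 the pLN d25 groups, and slides 4 and 5 the first and second array of the PP groups. Each slide thus carried every group of its tissue and day, while neither tissue nor day can be told apart from slide. Nor can tissue be told apart from any difference in immunisation or day between PP and pLN. Against naive T cells of pLN d12, 5 of 5 Treg markers and 3 of 5 follicular markers were called higher in Treg cells, and 5 of 5 follicular and 3 of 5 Treg markers (Ikzf2, Ctla4 and Il2ra) higher and 4 of 4 naive markers lower in TFH cells. Summed intensity of 13 B cell markers was 67286 to 464312 on slide 4, 11861 to 28332 on slide 5 and 8045 to 50329 on the pLN slides, and that of 7 epithelial markers 5612 to 13220 on slide 4, 1043 to 2577 on slide 5 and 632 to 2360 on the pLN slides. Summed intensity of 6 myeloid markers on the pLN slides was 1014 to 2134 in naive T, 5418 to 9097 in TFH, at most 2186 in Treg and 2780 to 4238 in TFR cells, and in PP it was 5910 in Treg and 9833 in TFR cells on slide 4 and 785 and 3021 on slide 5. Of the tested markers, 1 of 4 myeloid (Cd68, 3.03, SE 0.68) and 1 of 12 B cell markers (Cd22, 1.04, SE 0.23) were called higher in TFH than in naive T cells, and Cd68 was called higher in TFR than in Treg cells of PP (2.72, SE 0.68). The part of these transcripts in the values below was not tested, and for PP the values of slides 4 and 5 are given apart.

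All 8 genes were measured well above background on all 20 arrays by their brightest tested probe, and 14 of the 15 probes entered the test. The remaining probe, A_55_P2105446 of Foxp1, was above background on 0 arrays. Values are normalised intensities scaled so that the 75th percentile of an array is 1500, with a floor of 20, and differences are on the log2 scale. Because probes differ in how they bind, their levels are not set against each other. The sequences that carry the main results include the probes of Foxo1 and Tob1, the 2 genes whose main probe was called lower in TFH cells. For Foxp1 they are a 3′ and a 5′ probe that lie 233 kb apart and gave different sizes of change. Coordinates are those of the array annotation (mm9), sequences run 5′ to 3′, and capitals mark the stop codon TGA at the end of the Foxp1 3′ probe.
Foxo1, A_51_P138044, chr3:52150183-52150242, plus strand: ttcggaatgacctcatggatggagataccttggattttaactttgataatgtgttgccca
Tob1, A_51_P293339, chr11:94075956-94076015, plus strand: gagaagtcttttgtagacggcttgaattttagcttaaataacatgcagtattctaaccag
Foxp1 3′ probe, A_55_P2088825, chr6:98880084-98880143, minus strand: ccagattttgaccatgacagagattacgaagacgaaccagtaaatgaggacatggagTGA
Foxp1 5′ probe, A_55_P2105452, chr6:99112925-99112984, minus strand: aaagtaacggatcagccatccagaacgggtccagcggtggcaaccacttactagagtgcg
Of 3 RefSeq transcripts of Foxp1 that the annotation lists for the 3′ probe, the 5′ probe shares 2. The other main probes are A_55_P2129309 of Foxo3 (chr10:41967288-41967347), A_55_P2098598 of Btg1 (chr10:96082071-96082130), A_52_P31543 of Btg2 (chr1:135972094-135972153), A_51_P423578 of Slfn2 (chr11:82883791-82883850) and A_55_P1972842 of Klf3 (chr5:65221309-65221368).

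**Figure D1:**
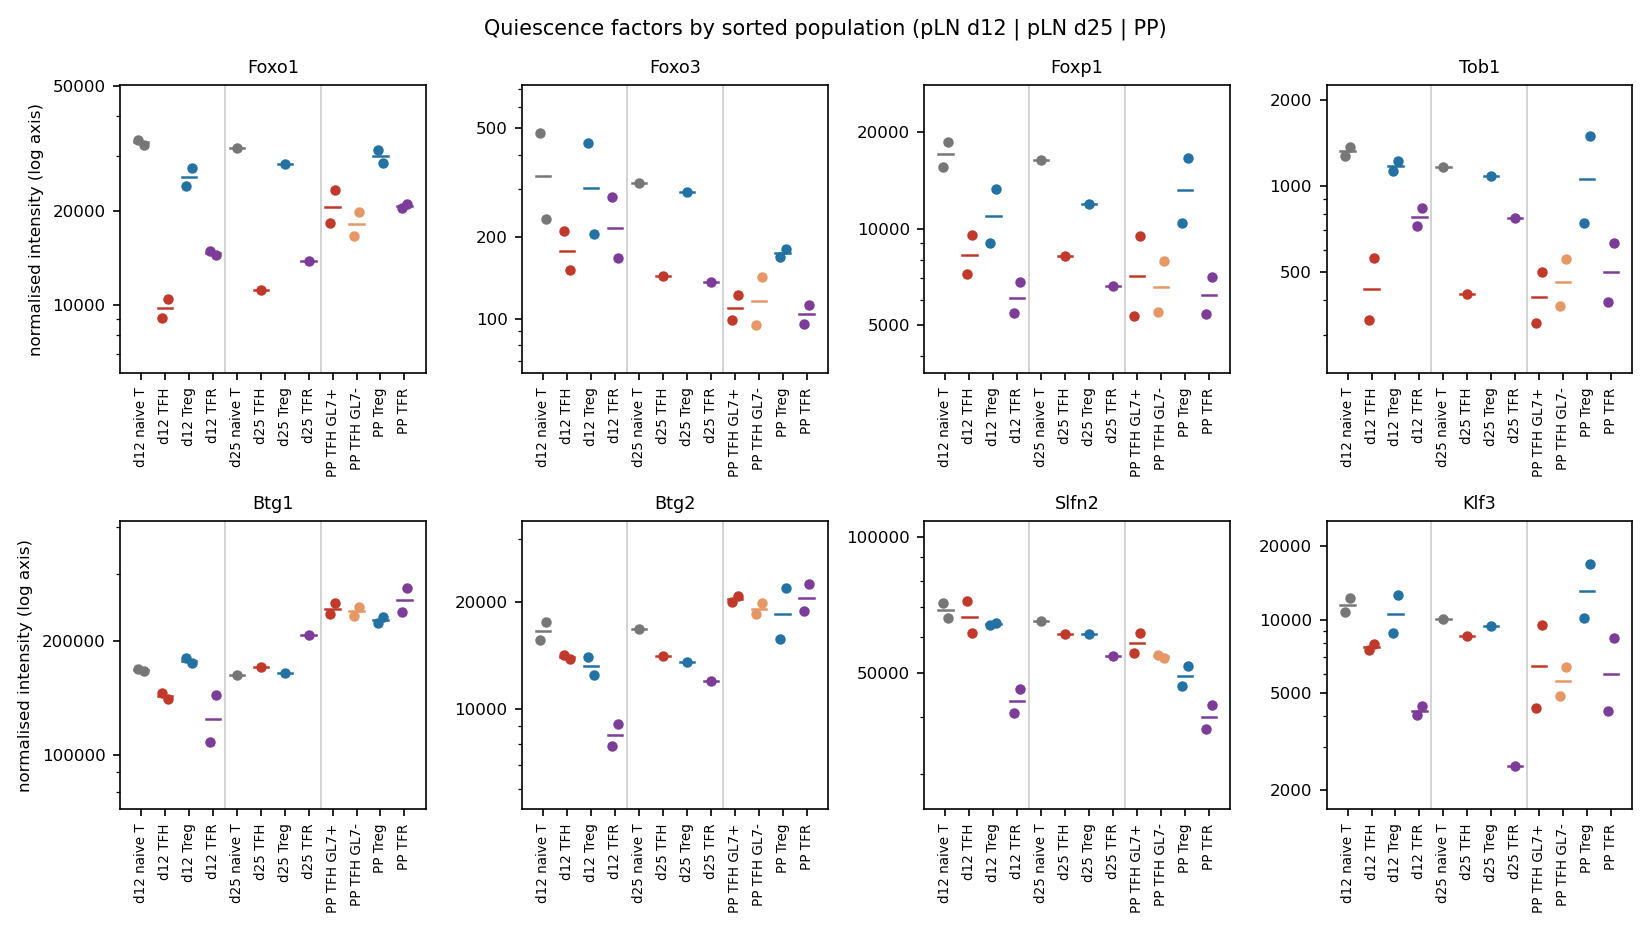
Normalised intensity (log axis) of the main probe of each gene on each of the 20 arrays, by sorted population; points are arrays, short lines are geometric means, and grey lines part pLN d12, pLN d25 and PP. Within each tissue and day, the group means of Foxo1, Foxp1 and Tob1 are higher in naive T and Treg cells than in TFH and TFR cells, while the highest arrays of Btg1 and Btg2 are in PP.

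From naive T to TFH cells in pLN d12, Foxo1 and Tob1 were called lower by their main probe. A call needed both an adjusted p under 0.05 and a log2 difference of 1 or more in size, and the other 6 genes did not pass it. Of all tested genes, 5.59% were called lower and 9.41% higher in this comparison, against 2 of 8 members lower and 0 higher. The log2 differences of all 8 main probes lay below 0, with a median of -0.74 against -0.10 over all genes. On 7 of the 8 main probes both TFH arrays lay below both naive arrays, which held for 29.8% of all genes.

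Foxo1 stood at 33543 and 32546 in naive T cells and at 9119 and 10471 in TFH cells of d12. On d25 the single arrays gave 31610 and 11179. The groups are far apart, and the TFH arrays are the lowest of the series for this gene. The log2 fold change of TFH against naive T cells was -1.76 (SE 0.17, 95% interval -2.14 to -1.38, 3.38-fold, adjusted p 5.95e-05), and within slides 1, 2 and 3 it was -1.88, -1.64 and -1.5. The second Foxo1 probe, A_52_P453884, gave -1.66 (SE 0.14, adjusted p 2.57e-05), and both probes were called under all 11 alternatives.

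Tob1, the antiproliferative partner of the deadenylase, read 1279 and 1375 in naive T cells and 340 and 561 in TFH cells. On d25 it read 1171 and 420. Its log2 fold change was -1.60 (SE 0.39, 95% interval -2.47 to -0.74, 3.04-fold, adjusted p 0.0150). The call was kept under 7 of 11 alternatives and was lost with a fit to the compared groups alone and without either naive array or TFH replicate 1, with a range of -1.97 to -1.24.

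Foxp1 was lower in TFH cells by each of its 4 tested probes, but by unlike amounts. The 3′ probe was at 15612 and 18646 in naive T cells and at 7203 and 9522 in TFH cells, a log2 difference of -1.04 (SE 0.35, 95% interval -1.83 to -0.26, adjusted p 0.0668) that was not called. With slide as a block the same difference had an adjusted p of 2.28e-04 and was called. The 5′ probe was at 2137 and 1150 in naive T cells and at 126 and 103 in TFH cells, a log2 fold change of -3.78 (SE 0.50, 95% interval -4.90 to -2.67, 13.8-fold, adjusted p 4.36e-04). The naive T arrays thus exceed the TFH arrays many times on the 5′ probe, and this call held under all 11 alternatives (-4.23 to -3.07). The intervals of the 2 probes do not overlap, though a difference between probes was not tested. The 2 other probes, A_52_P276792 and A_55_P2105436, were called at -1.07 (SE 0.32, adjusted p 0.0401) and -1.27 (SE 0.28, adjusted p 0.00942) on the log2 scale, of which the former kept its call under 6 of 11 alternatives and the latter under 10, without naive T replicate 1 as the exception.

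Btg1 likewise depended on the probe. Its upstream probe, A_55_P2098598, is among the brightest of the array (rank 201 to 767 of 39429 probes), and read 168333 and 166792 in naive T cells and 145935 and 140223 in TFH cells. The log2 difference was -0.23 (SE 0.16, 95% interval -0.59 to 0.14, adjusted p 0.416). With scaling to the 75th percentile alone, without quantile normalisation, the same arrays read 263219 and 239837 against 107404 and 135825, a log2 fold change of -1.06 (adjusted p 0.0192) that was called. The downstream probe, A_55_P2181191, lies 3.23 kb farther along (chr10:96085358-96085417) and is annotated to the same RefSeq transcript. It read 6920 and 7755 in naive T cells and 1082 and 973 in TFH cells, a log2 fold change of -2.84 (SE 0.30, 95% interval -3.49 to -2.18, 7.14-fold, adjusted p 9.08e-05). This fall was called under all 11 alternatives, between -2.93 and -2.72.

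**Figure D2:**
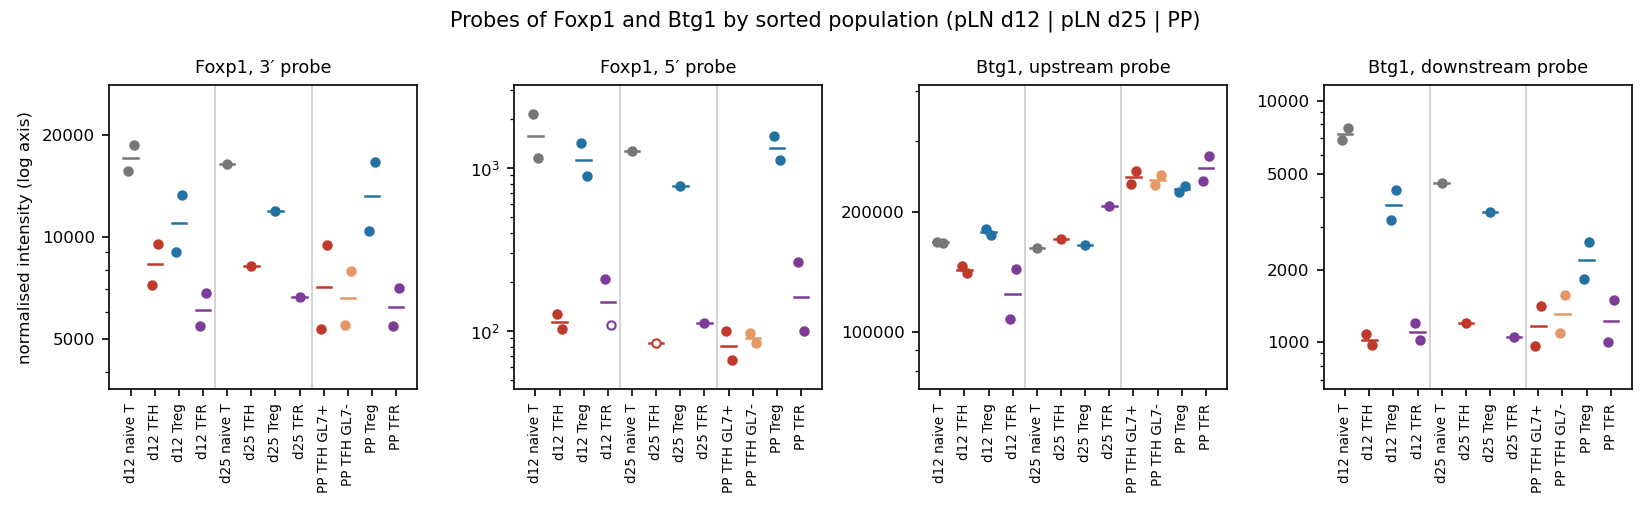
Normalised intensity (log axis) of 2 probes of Foxp1 and 2 of Btg1 on each array, by sorted population; points are arrays (open where the probe was not above background), short lines are geometric means, and each panel has its own scale. The Foxp1 5′ probe reads 776 to 2137 in naive T and Treg cells and 66 to 263 in TFH and TFR cells, and the Btg1 downstream probe is highest in naive T cells.

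The other members moved less in TFH cells. Foxo3, a dim gene here, read 480 and 233 in naive T cells and 210 and 151 in TFH cells (log2 difference -0.91, SE 0.44, adjusted p 0.202), and its second probe gave -0.78 (SE 0.23), with an adjusted p of 0.0398 but under the fold. Btg2 read 15641 and 17588 against 14224 and 13822 (-0.24, SE 0.19), and Klf3 read 10752 and 12215 against 7497 and 7923 (-0.57, SE 0.42). Slfn2 overlapped between the groups, with 71424 and 66207 in naive T cells and 72051 and 61421 in TFH cells, and its difference of -0.05 had a 95% interval of -0.39 to 0.29.

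No difference of a member between Treg and naive T cells of pLN d12 passed the call. limma called 0 of 8 members, where 3.98% of all genes were called. By unadjusted p, 0 members were under 0.05, against 2501 of the 22264 tested probes. Foxp1 had the largest difference of a main probe, -0.64, and within slides 1, 2 and 3 it was -0.8, -0.49 and -0.46. Its further tested probes gave -0.42, -0.43 and -0.48. Foxo1 read 23958 and 27456 in Treg cells, below both naive arrays, with a log2 difference of -0.37 (SE 0.17, adjusted p 0.484). On 5 of the 8 main probes both Treg arrays lay below both naive arrays and on 1 above, which held for 18.9% and 18.2% of all genes. Of the main probes 7 lay below 0, and Btg1 lay at 0.08, which turned to -0.10 with scaling to the 75th percentile alone. The Btg1 downstream probe was 3204 and 4262 in Treg cells (-0.99, SE 0.30, adjusted p 0.123).

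The step from Treg to TFR cells in pLN d12 ran below 0 for all 8 main probes, with a median of -0.62 against -0.09 over all genes, but 0 of 8 were called where 2.51% of genes were called lower and 6.09% higher. By unadjusted p, 6 members were under 0.05. The share of all tested probes under 0.05 in this step is not given, so that count is not read as a result about the members. Adjusted p was under 0.05 for Foxo1 and Slfn2, as for 12% of all genes at any fold. Foxo1 went from 23958 and 27456 in Treg to 14872 and 14424 in TFR cells, a log2 difference of -0.81 (SE 0.17, 95% interval -1.19 to -0.43, adjusted p 0.0126) that passed the p and missed the fold. Its second probe gave -0.86 (SE 0.14, adjusted p 0.00319). Slfn2 also passed the p alone, with 63788 and 64499 in Treg and 40884 and 46195 in TFR cells (-0.56, SE 0.15, adjusted p 0.0401). Both TFR arrays lay below both Treg arrays on 7 of the 8 main probes, Foxo1 and Slfn2 included, which held for 29.3% of all genes.

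Klf3 had the largest difference of a main probe in this step. It read 8827 and 12620 in Treg and 4039 and 4405 in TFR cells, a log2 difference of -1.32 (SE 0.42, 95% interval -2.26 to -0.39, adjusted p 0.0738). Within slides 1, 2 and 3 the difference was -1.13, -1.52 and -1.91, and with slide as a block it was called (adjusted p 8.6e-04). The TFR array of d25 was the lowest of the series at 2502. Btg2 went from 14022 and 12473 to 7907 and 9077 (-0.64, SE 0.19, adjusted p 0.0523), Tob1 from 1128 and 1223 to 724 and 840 (-0.59, SE 0.39, adjusted p 0.441), and the upstream Btg1 probe from 180404 and 174654 to 108024 and 143892 (-0.51, SE 0.16, adjusted p 0.0758).

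In this step 2 of the 3 further tested probes of Foxp1 and the downstream probe of Btg1 were called. The Foxp1 5′ probe went from 1411 and 894 in Treg cells to 207 and 109 in TFR cells, a log2 fold change of -2.90 (SE 0.50, 95% interval -4.02 to -1.79, adjusted p 0.00458). Only 1 of the 2 TFR arrays was above background for this probe, the other being the array with a median local background of 268 where the remaining arrays had 24 to 78. The 3′ probe went from 8997 and 13314 to 5465 and 6802 (-0.84, SE 0.35, adjusted p 0.180), and A_55_P2105436 was called at -1.29 (SE 0.28, adjusted p 0.0152). The remaining Foxp1 probe, A_52_P276792, was not called (-0.92, SE 0.32, adjusted p 0.102). The Btg1 downstream probe fell from 3204 and 4262 to 1202 and 1018, a log2 fold change of -1.74 (SE 0.30, 95% interval -2.40 to -1.09, adjusted p 0.00412). With a fit to the compared groups alone these 3 calls were lost, and A_55_P2105436 also lost its call without either TFR array or Treg replicate 2.

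In PP the step from Treg to TFR cells gave 6 main probes below 0 and 2 above, with a median of -0.64 against -0.05 over all genes. Of these, Btg1 was above 0 (0.18) but turned to -0.60 with scaling to the 75th percentile alone. Without slide in the fit, limma called 0 of 8 members, where 3.05% of genes were called lower and 6.51% higher. By unadjusted p in that fit, 4 members were under 0.05, as were 5143 of the 22264 tested probes. Foxp1, Klf3 and Tob1 had differences past the fold and were called with slide as a block. The share of all genes called in that blocked fit is not given, so the number of blocked calls is not read as a result about the members. On each slide the TFR array lay below the Treg array for these 3 genes.

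The Foxp1 3′ probe read 10392 in Treg and 5442 in TFR cells on slide 4 and 16659 and 7066 on slide 5, a log2 difference of -1.09 (SE 0.35, adjusted p 0.0801) and, with slide as a block, an adjusted p of 3.3e-04. Klf3 read 10185 and 4223 on slide 4 and 16882 and 8410 on slide 5, a difference of -1.14 (SE 0.42, adjusted p 0.124; blocked 0.00156). Tob1 read 744 and 393 on slide 4 and 1506 and 635 on slide 5, a difference of -1.08 (SE 0.39, adjusted p 0.112; blocked 0.00169), and without Treg replicate 1 it was -1.59 and called (adjusted p 0.0416). On slide 4, where B cell and epithelial transcripts were high, the differences of Foxp1, Klf3 and Tob1 were -0.93, -1.27 and -0.92, and on slide 5 they were -1.24, -1.01 and -1.24.

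The Foxp1 5′ probe was called in PP as well, at 1576 and 1121 in Treg and 263 and 99 in TFR cells (log2 fold change -3.04, SE 0.50, 95% interval -4.16 to -1.92, 8.22-fold, adjusted p 0.00311). GL7+ TFH cells of PP read 99 and 66 and GL7- TFH cells 97 and 84 on this probe. The 4 PP TFH arrays lie at or below the TFR arrays for it, and the TFR array of slide 4 stands above its partner. The call held under 11 of 12 alternatives and was lost with a fit to the compared groups alone, a setting in which limma called 0 of 22264 probes. Foxo1 read 31254 and 28503 in PP Treg and 20344 and 20977 in PP TFR cells (-0.53, SE 0.17, adjusted p 0.0758), and its second probe passed the p alone (-0.77, SE 0.14, adjusted p 0.00514). The Btg1 downstream probe read 1837 and 2616 against 1006 and 1495 (-0.84, SE 0.30, adjusted p 0.105), and Slfn2 46818 and 51743 against 37622 and 42512 (-0.30, SE 0.15, adjusted p 0.290).

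**Figure D3:**
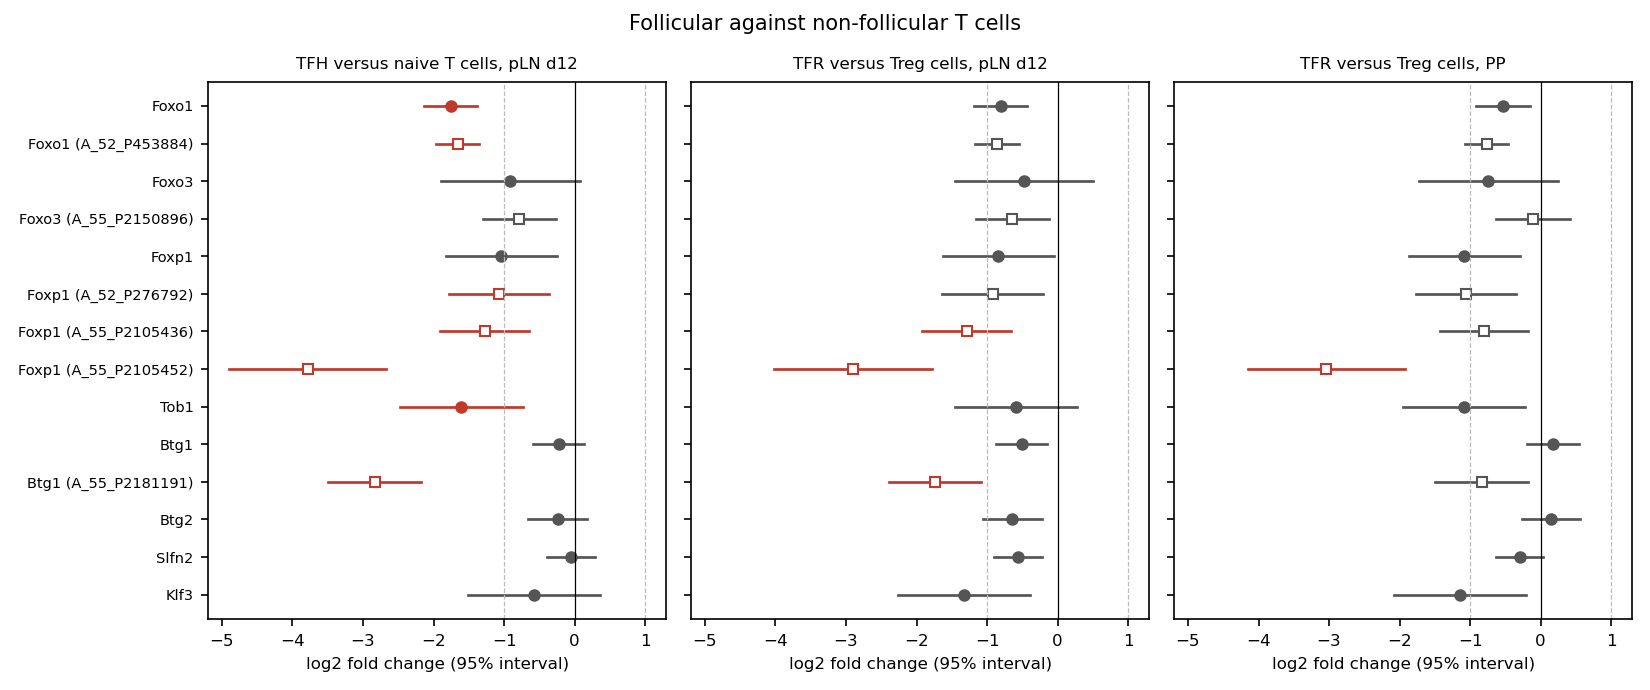
Log2 fold changes with 95% intervals of the 14 tested probes in 3 comparisons of follicular with non-follicular T cells; filled circles are main probes, open squares are further probes named by ID, red marks a call and dashed lines the fold of the call. Foxo1 and Tob1 are the main probes called in TFH cells, and the Foxp1 5′ probe A_55_P2105452 is called in each panel; the upstream Btg1 probe, at 0.18 in PP, turns to -0.60 with scaling to the 75th percentile alone.

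Whether the step differs between lineages or tissues was tested directly. The Treg to TFR change minus the naive to TFH change in pLN d12 was 0.95 for Foxo1 (SE 0.24, 95% interval 0.41 to 1.49, adjusted p 0.0905) and 1.01 for Tob1 (SE 0.55, adjusted p 0.734), and neither was called. With slide as a block Tob1 was called (adjusted p 0.0357), as was the Btg1 downstream probe (1.10, SE 0.42 and adjusted p 0.371 unblocked, adjusted p 0.0146 blocked). Without the block, limma called 0 of 8 members here (2.37% of all genes). An unadjusted p under 0.05 was found for 2 members and for 2037 of the 22264 tested probes. For the Treg to TFR change of PP minus that of pLN d12 limma called 0 of 8 (0.566% of all genes). There 2 members and 1818 of the 22264 probes had an unadjusted p under 0.05. Btg2 had the largest tissue difference of a main probe in this step, 0.79 (SE 0.26, adjusted p 0.339), followed by Btg1 with 0.69 (SE 0.23, adjusted p 0.346).

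Set against each other, TFR and TFH cells of pLN d12 gave 0 called members (5.2% of all genes). By unadjusted p, 3 members and 3517 of the 22264 tested probes were under 0.05. Btg2 and Slfn2 passed the p alone, as did 6.31% of all genes at any fold, with TFR below TFH cells at -0.73 (SE 0.19, adjusted p 0.0492) and -0.61 (SE 0.15, adjusted p 0.0426) on the log2 scale. Foxo1 (0.58, SE 0.17, adjusted p 0.0851) and Tob1 (0.84, SE 0.39, adjusted p 0.337) had both TFR arrays above both TFH arrays, which held for 22.8% of all genes. On 4 of the 8 main probes both TFR arrays lay below both TFH arrays, which held for 19.8% of all genes. Klf3 had the largest difference of a main probe, -0.87 and not called, and within slides 1, 2 and 3 it was -0.89, -0.85 and -1.77. In PP, TFR and GL7+ TFH cells likewise gave 0 called members (3.54% of all genes). By unadjusted p, 1 member and 2548 of the 22264 tested probes were under 0.05. Slfn2 read 37622 and 42512 in TFR against 55380 and 61304 in GL7+ TFH cells (-0.54, SE 0.15, adjusted p 0.0991). GL7+ and GL7- TFH cells of PP gave 0 called members (0.00577% of all genes), and 0 members had an unadjusted p under 0.05 by limma or by the methods' t-test. Of the 22264 tested probes, 254 were under 0.05 by limma and 526 by that t-test. The differences of the main probes between these sorts lay within -0.17 and 0.21, with standard errors of 0.15 to 0.44.

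Between tissues, 3 members differed, each higher in PP. Foxo1 was called higher in GL7+ TFH cells of PP than of pLN d12, and Btg1 and Btg2 in TFR cells of PP than of pLN d12. Of all genes, 2.35% were called higher and 2.26% lower in the TFH comparison, and 5.84% higher and 5.37% lower in the TFR comparison. In Treg cells 0 of 8 members were called (2.39% of all genes), and 2 members and 3248 of the 22264 tested probes had an unadjusted p under 0.05.

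Foxo1 stood at 18264 and 23217 in PP GL7+ TFH cells and at 9119 and 10471 in pLN d12 TFH cells, a log2 fold change of 1.08 (SE 0.17, 95% interval 0.70 to 1.46, adjusted p 0.00763). The second probe gave 1.17 (SE 0.14, adjusted p 0.00188). Both PP arrays, 18264 on slide 4 and 23217 on slide 5, stood above the 3 pLN TFH arrays, d25 included. The part of B cell transcripts in this difference was not tested. With slide as a random block the main probe kept its call (adjusted p 0.0445). It lost it at 0.96 with scaling to the 75th percentile alone (adjusted p 0.0251), without pLN d12 TFH replicate 1, without PP GL7+ TFH replicate 2 and with only the compared groups in the fit. Btg1 passed the p alone in the same comparison (0.77, SE 0.16, adjusted p 0.0252), as 6.11% of all genes did at any fold.

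Btg1 stood at 238808 and 276027 in PP TFR cells and at 108024 and 143892 in pLN d12 TFR cells, a log2 fold change of 1.04 (SE 0.16, 95% interval 0.68 to 1.41, adjusted p 0.00277). Btg2, which shares the BTG domain and its link to deadenylation, stood at 18855 and 22343 against 7907 and 9077, a log2 fold change of 1.28 (SE 0.19, 95% interval 0.86 to 1.69, adjusted p 0.00198). For Btg2 the pLN d12 TFR arrays are the lowest of the series, and for Btg1 the first of them is. The PP TFR array of slide 5 is the highest for both genes. On the single TFR array of d25, Btg1 read 206930 and Btg2 11976. With scaling to the 75th percentile alone the differences were 0.57 for Btg1 (adjusted p 0.191) and 0.96 for Btg2 (adjusted p 0.00995), and neither was called. Btg1 also lost its call without pLN d12 TFR replicate 1 and without PP TFR replicate 2, and both lost it with only the compared groups in the fit. The Btg1 downstream probe differed by 0.15 (SE 0.30, 95% interval -0.51 to 0.80), so the rise was seen on the upstream probe alone and the difference between the probes was not tested.

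The other members did not pass the call between tissues. Foxo3 went in opposite directions on its 2 probes in TFR cells, by -1.06 (SE 0.44, adjusted p 0.139) on the main probe and by 0.46 (SE 0.23, adjusted p 0.227) on A_55_P2150896. Tob1 in TFR cells differed by -0.64 (SE 0.39, adjusted p 0.318), Klf3 by 0.50 (SE 0.42, adjusted p 0.495) and Slfn2 by -0.12 (SE 0.15, adjusted p 0.679). Foxp1 differed by 0.02 on its 3′ probe (95% interval -0.76 to 0.81), which turned to -0.18 with scaling to the 75th percentile alone and to -0.02 with normexp background correction.

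**Figure D4:**
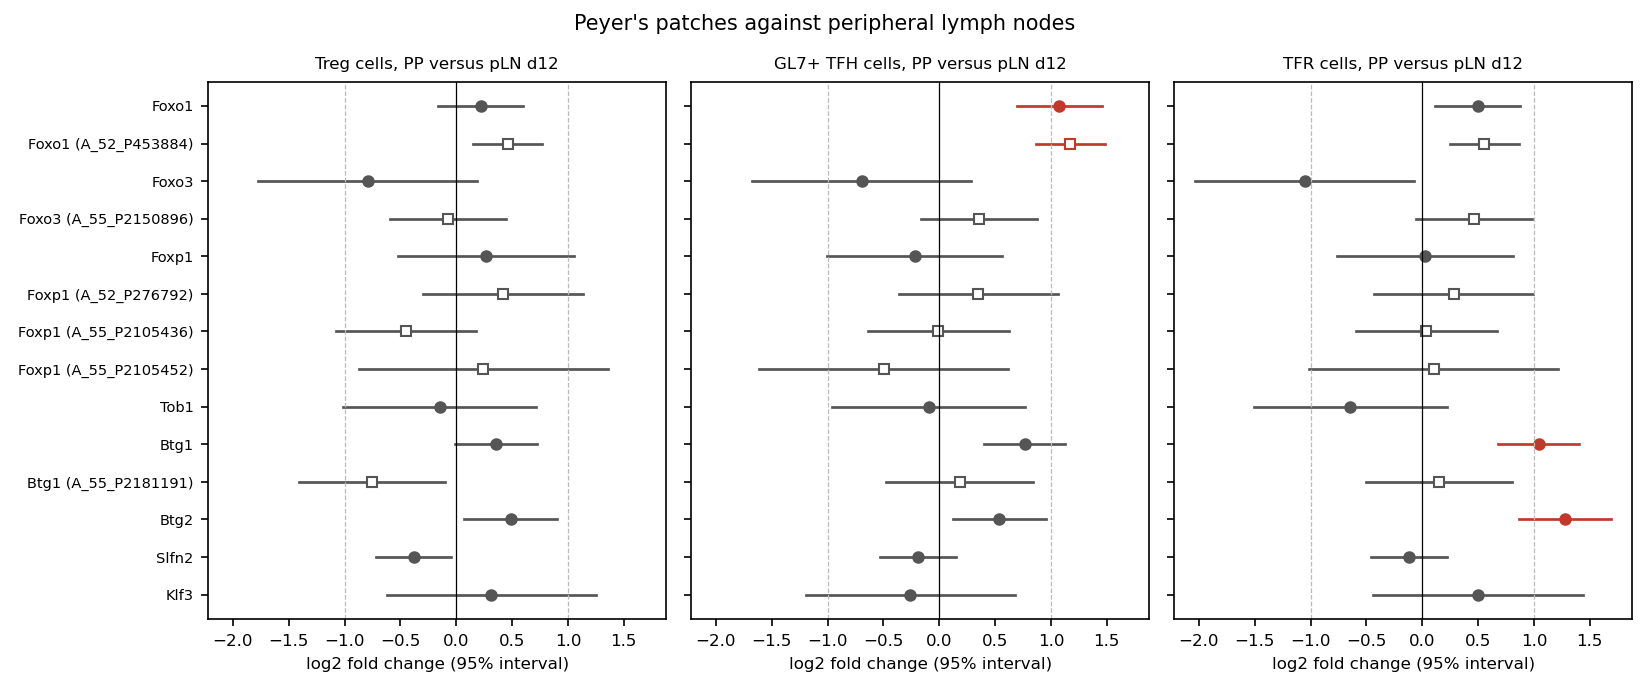
Log2 fold changes of PP against pLN d12 with 95% intervals for the 14 tested probes in Treg, GL7+ TFH and TFR cells; filled circles are main probes, open squares are further probes named by ID, red marks a call and dashed lines the fold of the call. Foxo1 is called in GL7+ TFH cells by both probes, and Btg1 and Btg2 in TFR cells; near 0, Foxo1 in Treg cells turns from 0.22 to -0.02 and Foxp1 in TFR cells from 0.02 to -0.18 with scaling to the 75th percentile alone.

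Averaged over the 4 cell types, pLN d25 and d12 gave 0 called members (0.0462% of all genes). By unadjusted p, 0 members and 2098 of the 22264 tested probes were under 0.05. The differences of the main probes lay between -0.28 (Foxo3, SE 0.27) and 0.21 (Btg1, SE 0.10).

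In the order of the 12 group means, naive T cells of d12 were highest for Foxo1, Foxo3, Foxp1, Tob1 and Slfn2, PP Treg cells for Klf3 and PP TFR cells for Btg1 and Btg2. The lowest group was pLN d12 TFH for Foxo1, PP GL7+ TFH for Tob1, pLN d12 TFR for Foxp1, Btg1 and Btg2, pLN d25 TFR for Klf3, and PP TFR for Foxo3 and Slfn2. The span from the highest to the lowest group mean was 2.39 for Klf3, 1.76 for Foxo1, 1.70 for Tob1, 1.68 for Foxo3, 1.48 for Foxp1, 1.28 for Btg2, 1.04 for Btg1 and 0.78 for Slfn2 on the log2 scale, against a spread between the 2 arrays of a group of 0.10 to 0.47. For Foxp1 every group overlapped its neighbour in this order. For Foxo1 the PP TFR, GL7+ TFH and GL7- TFH arrays overlapped their neighbours, and the other neighbours were apart.

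Over the 12 group means, Foxp1 correlated with Klf3 (r = 0.794), Foxo3 (0.793), Tob1 (0.768) and Foxo1 (0.725), Foxo3 with Tob1 (0.848) and Btg1 with Btg2 (0.784), while Btg1 and Foxo3 ran opposite (-0.667). These values describe 12 groups that share slides. Among the genes whose group means were most like a member's were B4galnt1 (r = 0.981) for Foxo1, Tulp2 (0.986) for Foxo3, Zfp354c (0.971) for Foxp1, Oat (0.987) and Gpr18 (0.986) for Tob1, and Iqcb1 (0.961) for Btg1. For Btg2 it was Psap (0.973), for Slfn2 C920006O11Rik (0.940) and for Klf3 C230096K16Rik (0.974).

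Among genes that FOXO factors are known to maintain in T cells, some but not all were called in follicular cells. Of 16 tested, 9 were called lower and 0 higher in TFH against naive T cells of pLN d12, where 5.59% of all genes were lower, with a median of -1.74 against -0.10 over all genes. They included Il7r, the interleukin-7 receptor chain, at -4.35 (SE 0.58), Ccr7, the receptor for T zone chemokines, at -3.70 (SE 0.34), S1pr1, the egress receptor, at -3.62 (SE 0.29), and Klf2, which drives S1pr1, at -3.38 (SE 0.44). From Treg to TFR cells, 4 were called lower in pLN d12 (2.51% of all genes), led by S1pr1 (-1.96, SE 0.29) and Pik3ip1 (-1.81, SE 0.27), and 8 in PP (3.05% of all genes), among them Klf2 (-4.08, SE 0.44) and S1pr1 (-3.45, SE 0.29). Against TFH cells, 4 of the 16 were higher in TFR cells of pLN d12 (2.92% of all genes): Klf2 by 1.88 (SE 0.44), Sesn1 by 1.75 (SE 0.27), Ccr7 by 1.68 (SE 0.34) and S1pr1 by 1.5 (SE 0.29). Ccr7, Klf2 and S1pr1 are also among the naive markers used above.

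Between Treg and naive T cells 0 of the 16 were called. In TFR cells, 4 of the 16 were lower in PP than in pLN d12 (5.37% of all genes), among them Klf2 at -2.67 (SE 0.44) and Ccr7 at -1.83 (SE 0.34), and Cited2 was higher (1.21, SE 0.33). Foxo1 itself, by its main probe, differed there by 0.50 (SE 0.17, adjusted p 0.0760). Of the genes that control FOXO through PI3K, AKT and SGK, 2 of 14 were called higher and 3 lower in TFH cells, against 9.41% and 5.59% of all genes: Phlpp2 and Phlpp1, phosphatases of AKT, rose by 1.41 (SE 0.20) and 1.34 (SE 0.36), and the kinase gene Sgk1 fell (-2.65, SE 0.71). In the same list 0 were called from Treg to TFR cells in pLN d12, and in PP 1 rose and 1 fell.

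The shares of all genes called lower were 5.59% in TFH against naive T cells, 2.51% in TFR against Treg cells of pLN d12 and 3.05% in PP, those called higher 9.41%, 6.09% and 6.51%, and the medians over all genes -0.10, -0.09 and -0.05. Of 14 other quiescence factors, 5 fell and 0 rose in TFH cells, with a median of -0.53, among them Bach2 (-3.49, SE 0.37), Tsc22d3, the glucocorticoid-induced leucine zipper (-3.47, SE 0.45), Satb1 (-2.78, SE 0.25) and Lef1 (-2.59, SE 0.25). In TFR against Treg cells 5 fell in pLN d12 and 4 in PP, each time including Tsc22d3, Satb1, Bach2 and Lef1. Among 5 other Schlafen genes, Slfn8 (-2.63, SE 0.48) and Slfn1 (-1.79, SE 0.45) fell in TFH cells, and Slfn1 fell in TFR cells of pLN d12 (-1.78, SE 0.45) and PP (-2.61, SE 0.45), where Slfn2 was not called. Of 11 other Kruppel-like factors, 1 rose and 4 fell in TFH cells, 2 rose and 3 fell in TFR cells of pLN d12, and 1 rose and 3 fell in TFR cells of PP.

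Against the same shares, of 15 genes of CCR4-NOT, the deadenylase that TOB1 and the BTG proteins recruit, and of PAN, 0 were called in TFH cells (median 0.04), 1 in TFR cells of pLN d12 (Cnot4, -1.02, SE 0.28) and 0 in TFR cells of PP. The other members of the families, 2 of the BTG and TOB genes and 2 of the FOXO and FOXP genes, gave 0 calls in these comparisons, and Foxo4 was higher in TFR cells of PP than of pLN d12 (1.08, SE 0.15). Of 16 cell cycle genes, 10 rose and 1 fell in TFH cells (median 2.93), led by Bub1 (4.80, SE 0.55) and Mki67 (4.54, SE 0.55), with Myc as the gene that fell (-1.92, SE 0.32). From Treg to TFR cells 10 rose and 0 fell in pLN d12 (median 2.47) and 5 rose and 1 fell in PP (median 1.19), and 9 were lower in TFR cells of PP than of pLN d12, where 5.37% of all genes were. Of 10 inhibitors of cyclin-dependent kinases and pocket proteins, 4 rose and 1 fell in TFH cells (median 0.50), led by Cdkn1a (4.61, SE 0.61). With a fit to the compared groups alone, 0 genes of the FOXO target, other quiescence and cell cycle lists were called from Treg to TFR cells in PP.

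The promoters of the members were searched for the forkhead core TGTTTA and the longer FOXO consensus TGTTTAC, on both strands and in the 250 bases before each RefSeq start (GRCm38.p6, 10 starts for the 8 genes). The longer motif contains the core. The core was found at 4 of the 10 starts, those of Btg1 and the 3 of Foxp1, against 12% of 32851 promoters, and the longer motif at Btg1 alone, against 3.17%. The palindrome TGACGTCA, the cAMP response element, was found at Btg2, against 1.55%. These promoters are shown because Foxp1 has several starts, its probes gave unlike changes, and Btg1 holds the FOXO consensus. They are in GRCm38.p6 and were not placed against the mm9 probes, and capitals mark the motif.
Btg1, chr10:96616751-96617000, plus strand: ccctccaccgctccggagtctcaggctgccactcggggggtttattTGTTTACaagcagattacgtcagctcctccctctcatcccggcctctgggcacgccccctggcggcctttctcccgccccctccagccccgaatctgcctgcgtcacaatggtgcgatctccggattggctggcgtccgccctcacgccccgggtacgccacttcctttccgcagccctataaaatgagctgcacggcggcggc
Foxp1, the first start, chr6:99520994-99521243, minus strand: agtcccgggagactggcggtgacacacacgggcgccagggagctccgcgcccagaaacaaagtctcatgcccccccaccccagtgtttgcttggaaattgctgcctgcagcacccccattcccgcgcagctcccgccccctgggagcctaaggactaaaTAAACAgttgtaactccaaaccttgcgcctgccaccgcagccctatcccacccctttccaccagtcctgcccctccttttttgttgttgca
Foxp1, the second start, chr6:99266516-99266765, minus strand: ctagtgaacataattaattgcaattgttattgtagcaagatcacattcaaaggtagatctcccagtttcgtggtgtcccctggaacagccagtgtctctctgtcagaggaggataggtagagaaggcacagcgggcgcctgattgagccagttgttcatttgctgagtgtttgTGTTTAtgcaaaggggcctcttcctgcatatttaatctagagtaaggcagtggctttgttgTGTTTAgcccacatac
Foxp1, the third start, chr6:99028299-99028548, minus strand: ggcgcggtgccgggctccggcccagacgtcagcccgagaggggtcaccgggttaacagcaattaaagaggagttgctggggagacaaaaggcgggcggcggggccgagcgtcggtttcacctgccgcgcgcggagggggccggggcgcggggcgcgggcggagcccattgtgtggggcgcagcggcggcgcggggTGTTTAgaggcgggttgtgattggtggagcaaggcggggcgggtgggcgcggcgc
A match describes letters in a window and not a bound site.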

How the data were processed

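Arrays were 1-colour Agilent arrays (array design annotated on mm9), read with Agilent Feature Extraction 10.7.3.1 per the labels. The deposited scanner files give an intensity for each printed feature, and the series matrix holds intensity that the authors averaged, quantile normalised, scaled and floored. The study's steps were repeated from the scanner files: the geometric mean of the processed signal over 4 features per probe, leaving out flagged features, those outside 1.42 times the interquartile range and those with a pixel coefficient of variation above 0.5, then quantile normalisation, scaling to a 75th percentile of 1500, a floor of 20 and log2. Member probes differed from the authors' intensity by at most 0.243 on the log2 scale. A probe was detected on an array with at least 3 features well above background (43.0% to 58.0% of 39429 probes), and 22264 probes detected on both arrays of a group were tested. The lowest intensity of a detected probe was 20 to 144 per array, and the number of arrays limits the precision.

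1 model with a mean for each of 12 groups was fitted to 20 arrays (limma 3.58.1, R 4.3.3, lmFit and eBayes, 8 residual degrees of freedom), with 13 comparisons, two-sided p-values and Benjamini-Hochberg adjustment over all tested probes. Single-array groups take their spread from the rest. This model has no term for slide and so leaves out the pairing of groups within a slide. With slide as a random block the estimated correlation of arrays within a slide was 0.742. A gene is read from its tested probe with the highest mean, and other tested probes of a member are named where they differ. From each list, called genes with the largest changes are named, and some items are not reported here. Names come from the files, updated by accession through RefSeq (27508 probes matched, 2017 with another symbol). The members and the lists were chosen with earlier results of these data known. Replicate numbers follow accession order and mark the slide. The test was tested on simulated data. The exon of a probe was not determined, since no annotation of mm9 was used here.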

Additional observations from a re-analysis of the deposited data

How the results depend on the processing

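Calls among the members rested on few arrays, and a log2 change of 1 was mostly missed in simulated data with 2 arrays per group. Of 200 probes changed by 1, 5% were called for TFH against naive T cells and 14% for TFR against Treg cells of PP. For the Treg to TFR change of PP minus that of pLN d12, 0% were called at a change of 1 and 32.5% at 2. The simulation changed 200 of 22264 probes, left the others without a difference and drew noise independently for each array. In the data, 20.1% of genes (TFH against naive T) and 12.6% (TFR against Treg, PP) had an adjusted p under 0.05 by limma. Arrays of a slide also correlated, at 0.742. The percentages therefore describe the simulated setting and are not the sensitivity of the test on these data. A true change of 1 lies on the fold of the call. A count of 0 called members thus does not show that the members are unchanged. For TFH against naive T cells the count of called members was 2, and 4 with scaling to the 75th percentile alone (Btg1, Foxo1, Foxp1 and Tob1), 1 with only the compared groups in the fit, and 1 to 2 with an array left out. For GL7+ TFH cells of PP against pLN d12 it was 1, and 0 with that scaling and with only the compared groups, and 0 to 1 with an array left out. For TFR cells of PP against pLN d12 it was 2, and 0 with that scaling and with only the compared groups, and 1 to 2 with an array left out. With slide as a fixed block, which pairs the arrays by replicate number, it went from 0 to 1 for TFR against Treg cells of pLN d12 (Klf3), from 0 to 3 for PP (Foxp1, Klf3 and Tob1), from 0 to 1 for the lineage difference (Tob1) and from 2 to 3 for TFH against naive T cells (Foxp1 added), and the block changed no other count of called main probes. Leaving out an array gave 0 to 1 for TFR against Treg cells of PP (Tob1 without Treg replicate 1). The cause of these moves was not tested. Shares of all genes under these settings are not given beside the counts, which are therefore not read as a result about the members. The 36 probe differences that passed at least 1 part of the call, or were called under an alternative, kept their sign under their 419 alternatives. Of the other 146, 117 of 1863 alternatives had the other sign, up to 0.6 in size. The methods' t-test of GL7+ against GL7- TFH cells gave 526 probes at an unadjusted p under 0.05 and 1 after Benjamini-Hochberg, with 0 members among the former.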
